A study of Mus musculus with 12 samples.

Results

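Genes that respond to temperature were followed in nascent RNA from mouse liver. They are Hsf1 and 7 chaperone genes that its protein controls (Hspa1b, Hspa8, Hsp90aa1, Hsph1, Dnajb1, Hspd1 and Hspe1), and the cold-inducible genes Cirbp and Rbm3. The genes were chosen by name and not by their values, and all 10 were found among the 21490 gene symbols of the table. Hsph1 was found under its older symbol Hsp110, which RefSeq lists as a synonym. Nascent-Seq reads RNA that is still attached to chromatin, so that its signal follows transcription more closely than the amount of mature mRNA does. Livers came from wild-type C57BL/6 male mice, 3 to 6 months old, kept under 12 hr of light and 12 hr of darkness for at least 2 weeks. The mice were anaesthetised with isoflurane and decapitated, and livers were taken at ZT0, ZT4, ZT8, ZT12, ZT16 and ZT20 (zeitgeber time, in hours after lights on), with 2 libraries per time point and 12 in all. The labels do not say how many animals went into a library, so the p-values below measure only the spread between libraries.

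Heat shock factor 1 (HSF1), the product of Hsf1, is held inactive by chaperones at rest. When unfolded protein occupies these chaperones, HSF1 forms trimers, binds heat shock elements (inverted repeats of the letters GAA) and raises transcription of the chaperone genes, which closes the loop. Cold works through other factors: CIRBP and RBM3 are RNA-binding proteins that become more abundant when cells are cooled by a few degrees. Mice are nocturnal and warmer in the dark, when they are active and feed. In the liver this daily swing in temperature is known to act on the heat shock genes and on Cirbp in opposite directions.

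Signal is given in reads per base pair of exon (rpbp), which corrects for gene length and allows levels of different genes to be compared. The 12 libraries differed in ways that touch these genes. The methods give 2 sequencing lanes per library for ZT8 and ZT20 and 1 for the rest, so lanes and time points cannot be told apart in a comparison that involves those times. The libraries also differed in how strongly they represented GC-rich exons. From the lowest to the highest of 20 bins of exon GC content, the median deviation changed by -1.20 (log2) in ZT8 replicate 2 and by -0.57 in ZT20 replicate 2, against 0.51 in ZT12 replicate 1 and 0.52 in ZT16 replicate 1. The rpbp values of a library summed to between 118342 and 160545. The number of reads behind each value is not in the table, and depth per gene was not computed. The authors list more uniquely mapped reads for each ZT8 and ZT20 library than for any other. Hepatocyte markers (6 genes, Alb among them) summed to between 496 and 1529 rpbp, while 4 cholangiocyte markers summed to at most 2.2 rpbp and 5 Kupffer cell markers to between 18 and 70.3 rpbp. In whole tissue, fewer cells of a type and less RNA per cell cannot be told apart.

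The promoters of 4 of the chaperone genes hold letters that HSF1 reads. RefSeq promoters (GRCm38.p6) were at hand for 6 of the 10 genes: Hspa1b, Hsph1, Dnajb1, Hspd1, Hspe1 and Cirbp. Hsf1, Hspa8, Hsp90aa1 and Rbm3 had no entry. In the 250 bases before each start, pairs of inverted units were searched for as GAANNTTC and TTCNNGAA, each of which reads the same on both strands, and overlapping pairs were joined into longer runs. Hspd1 and Hspe1, which encode the mitochondrial chaperonin and its lid, are transcribed away from each other from starts with 215 bases between them. The longest run of any of these genes lies there, with 4 units in a row (capitals), at chr1:55088053-55088082 and shown on the strand of Hspe1.

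Hspd1 and Hspe1, between the starts: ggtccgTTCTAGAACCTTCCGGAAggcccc

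A run of 4 units was found in 7 of 32851 promoters (0.0213%). The entry of Hspe1 and the second entry of Hspd1 are 2 of these 7 and hold the same stretch. Hsph1 and Hspa1b had 1 pair of units each, a feature shared by 12.8% of all promoters. The promoters of Hsph1 (chr5:149636337-149636586, minus strand), of Hspa1b (chr17:34959239-34959488, minus strand) and, as the cold-inducible gene for comparison, of Cirbp (chr10:80167589-80167838, plus strand) are shown with any such pair in capitals.

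Hsph1: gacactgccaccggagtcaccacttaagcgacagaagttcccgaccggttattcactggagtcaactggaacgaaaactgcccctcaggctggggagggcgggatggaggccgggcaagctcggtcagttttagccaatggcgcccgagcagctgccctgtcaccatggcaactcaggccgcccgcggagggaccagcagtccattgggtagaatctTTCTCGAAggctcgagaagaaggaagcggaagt

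Hspa1b: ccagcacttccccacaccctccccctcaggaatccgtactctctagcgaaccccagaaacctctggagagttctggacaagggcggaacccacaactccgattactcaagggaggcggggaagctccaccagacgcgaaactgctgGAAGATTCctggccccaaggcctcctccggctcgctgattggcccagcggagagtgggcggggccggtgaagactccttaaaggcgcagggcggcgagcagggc

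Cirbp: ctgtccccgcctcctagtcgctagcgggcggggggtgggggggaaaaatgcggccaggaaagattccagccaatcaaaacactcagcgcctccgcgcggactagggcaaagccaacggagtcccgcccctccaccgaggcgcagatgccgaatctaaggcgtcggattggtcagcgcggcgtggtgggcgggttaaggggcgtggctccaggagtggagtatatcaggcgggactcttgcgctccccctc

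The pair TTCTCGAA of Hsph1 began 33 bases before the start, and the pair GAAGATTC of Hspa1b began 104 bases before it. The windows of Cirbp and of Dnajb1 held neither spelling, which says only that these letters are not in these windows. The E-box CACGTG, the site of the clock factors CLK and BMAL1, was found in the first entry of Hspd1 and the second entry of Hsph1, against 6.02% of all promoters.

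The 10 genes differed widely in level. Hspa8, the constitutive cytosolic Hsp70, was highest at 21.7 ± 11.5 rpbp (mean ± SD over 12 libraries) and higher than 89.6% of the 6284 tested symbols, those above 6 rpbp in at least 1 library. It was followed by Hsf1 (8.25 ± 1.37 rpbp), Rbm3 (6.79 ± 1.36 rpbp), Cirbp (6.36 ± 2.45 rpbp) and Hsph1 (5.44 ± 2.89 rpbp). These 5 genes passed the threshold of 6 rpbp. Dnajb1 (2.95 ± 1.07 rpbp), Hspd1 (2.76 ± 0.909 rpbp), Hspe1 (2.17 ± 0.762 rpbp), Hsp90aa1 (1.02 ± 0.651 rpbp) and Hspa1b (0.225 ± 0.218 rpbp) did not. Only Hspa8 was separated from the next gene by more than their SDs, and even their ranges overlapped. Each of the other 8 neighbouring pairs in this order overlapped within 1 SD. Hspa1b, the strictly heat-inducible Hsp70, is a gene without introns whose near-identical copy Hspa1a lies 9960 bp away and was listed at 0 to 0.2 rpbp. The authors kept only uniquely mapped reads, so the values of this pair, and of chaperone genes with processed pseudogenes such as Hspa8 and Hspe1, are uncertain. The small nucleolar RNA genes Snord14c, Snord14d and Snord14e overlap Hspa8 on its own strand. Rbm3 is overlapped on the other strand by the transcript 2900002K06Rik, and the counting did not use strand. Hspd1 and Hspe1 overlap each other on opposite strands in the annotation, though not in their deposited coordinates. The part of these overlapping genes in the signal was not tested.

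Hsf1 itself (chr15:76307874-76331402, mm9, plus strand) varied little. Its 2 libraries gave 7.8 and 9.4 rpbp at ZT0, 8.3 and 9.4 rpbp at ZT4, 8.5 and 5.1 rpbp at ZT8, 7.8 and 10.7 rpbp at ZT12, 8.6 and 7.9 rpbp at ZT16, and 8.4 and 7.1 rpbp at ZT20. The lowest value came from ZT8 replicate 2, the library poorest in GC-rich exons, and the exons of Hsf1 are 58.0% GC. The highest time-point mean was 1.36 times the lowest, against a median of 1.73 times over all tested genes. Bop1, on the other strand and only 165 bp from Hsf1, gave 2.5 to 5.9 rpbp, and the counting did not use strand.

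The cytosolic chaperone genes Hspa8 and Hsph1 had their lowest means at ZT4, without a call by the test below. Hspa8 (chr9:40609355-40613282, mm9, plus strand) gave 24.2 and 33.7 rpbp at ZT0, 8.1 and 4.8 rpbp at ZT4, 11 and 31.5 rpbp at ZT8, 14.9 and 26.6 rpbp at ZT12, 13.4 and 20.1 rpbp at ZT16, and 30.7 and 41.9 rpbp at ZT20. Both ZT4 libraries lay below the other 10, a pattern noticed after the values were seen and found in 57 of the 6284 tested symbols (0.907%). Some time point lay below all others in both libraries for 18.3% of them, and above all others for 19.8%. Hsph1 (chr5:150416861-150438890, mm9, minus strand), an Hsp110 that exchanges the nucleotide of Hsp70, gave 6.9 and 8.4 rpbp at ZT0, 1.8 and 1.1 rpbp at ZT4, 1.8 and 5.4 rpbp at ZT8, 4.0 and 10.3 rpbp at ZT12, 5.8 and 8.4 rpbp at ZT16, and 6.4 and 5.0 rpbp at ZT20. Here ZT8 replicate 1 was as low as the higher ZT4 library. For both genes the highest time-point mean was over 5 times the lowest (5.63 times for Hspa8 and 5.28 times for Hsph1), a wider range than in 95.5% and 95.1% of tested symbols.

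The libraries of a time point also differed widely for these genes. At ZT8 the replicates were 2.86-fold apart for Hspa8 and 3-fold apart for Hsph1. The SD within time points was 0.57 (log2) for Hspa8 and 0.53 for Hsph1, above 93.1% and 91.6% of tested symbols, where the median was 0.25. None of the 5 tested genes passed limma's F-test over the 6 time points at an adjusted p under 0.05, against 7.65% of all tested symbols. Below an unadjusted p of 0.05, where 27.6% of symbols lay, there were 3: Hspa8 (adjusted p = 0.0674), Hsph1 (adjusted p = 0.0861) and Cirbp (adjusted p = 0.0945). Hspa8 passed this test with 1 of the ZT8 libraries left out (adjusted p of 0.0325 without replicate 1 and 0.0373 without replicate 2) and with the replicate number as a block (0.0492).

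**Figure D1:**
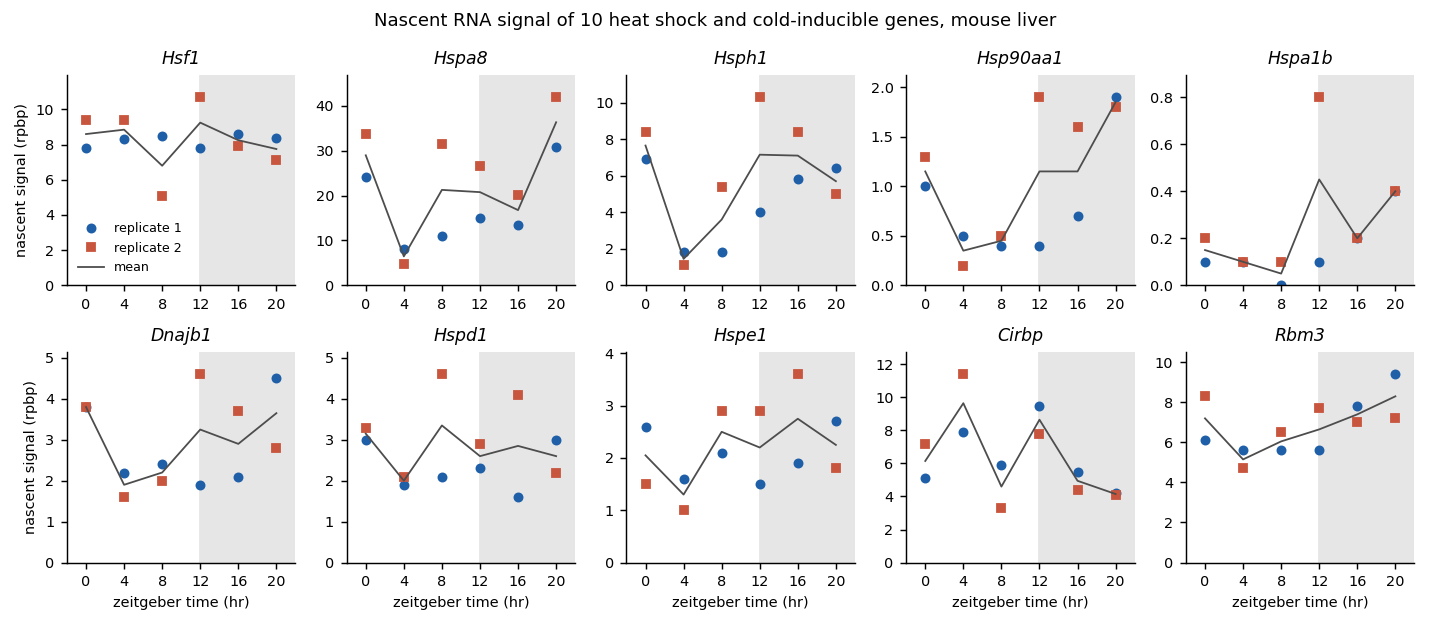
Nascent RNA signal in rpbp (y axis, from 0) against zeitgeber time in hours (x axis) for each of the 10 genes. Circles are replicate 1, squares replicate 2, lines the mean of both, and shading the dark phase. Hspa8 and Hsph1 were lowest at ZT4 (means of 6.45 and 1.45 rpbp), where Cirbp had its highest mean (9.65 rpbp).

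Of the genes below the threshold, Hsp90aa1 (chr12:111929245-111934605, mm9, minus strand), the stress-inducible cytosolic Hsp90, had a similar course at a lower level. It gave 1.0 and 1.3 rpbp at ZT0, 0.5 and 0.2 rpbp at ZT4, 0.4 and 0.5 rpbp at ZT8, 0.4 and 1.9 rpbp at ZT12, 0.7 and 1.6 rpbp at ZT16, and 1.9 and 1.8 rpbp at ZT20. All ZT4 and ZT8 values were at or below 0.5 rpbp, and both ZT20 values were at or above 1.8 rpbp. Hspa1b stayed at or below 0.4 rpbp in 11 libraries and reached 0.8 rpbp in ZT12 replicate 2, the library that was also highest for Hsph1 and Dnajb1. Dnajb1, an Hsp40 that hands clients to Hsp70, ranged from 1.6 rpbp in ZT4 replicate 2 to 4.6 rpbp in ZT12 replicate 2, with a median of 2.6 rpbp. The mitochondrial pair ranged from 1.6 to 4.6 rpbp for Hspd1, as for Dnajb1, and from 1.0 to 3.6 rpbp for Hspe1. Their highest time-point means were 1.68 and 2.12 times the lowest.

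The cold-inducible genes did not share 1 course. Cirbp (chr10:79630585-79634398, mm9, plus strand) gave 5.1 and 7.2 rpbp at ZT0, 7.9 and 11.4 rpbp at ZT4, 5.9 and 3.3 rpbp at ZT8, 9.5 and 7.8 rpbp at ZT12, 5.5 and 4.4 rpbp at ZT16, and 4.2 and 4.1 rpbp at ZT20. It was high at ZT4 and ZT12 in both replicates and low at ZT16 and ZT20, with ZT8 between them low in replicate 2. The exons of Cirbp are 56.7% GC, and its ZT8 replicate difference shrank with the GC trend removed, as given below. Rbm3 (chrX:7717192-7722823, mm9, minus strand) gave 6.1 and 8.3 rpbp at ZT0, 5.6 and 4.7 rpbp at ZT4, 5.6 and 6.5 rpbp at ZT8, 5.6 and 7.7 rpbp at ZT12, 7.8 and 7.0 rpbp at ZT16, and 9.4 and 7.2 rpbp at ZT20. It was lowest in mean at ZT4 (5.15 rpbp) and highest at ZT20 (8.3 rpbp), as for Hspa8, while Cirbp was highest at ZT4.

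**Figure D2:**
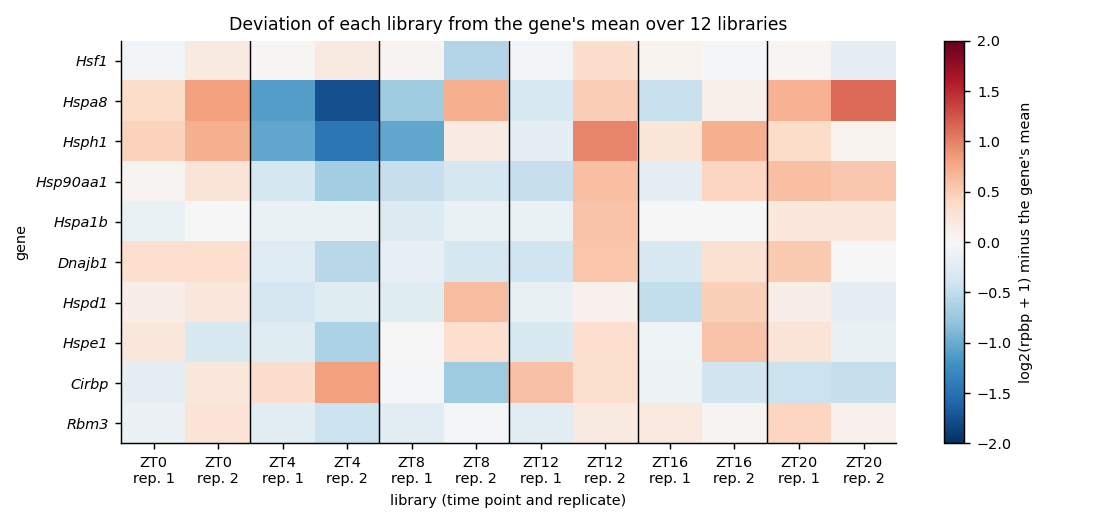
Log2(rpbp + 1) of each of the 10 genes (rows) in each of the 12 libraries (columns, replicates of a time point side by side), minus the gene's mean over the libraries. Red is above and blue below the mean. The ZT4 columns are blue for all chaperone genes and Rbm3 and red for Cirbp.

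To ask which of the genes were transcribed with a daily rhythm, the share of a gene's variance that lies in a 24-hr cosine (F24) was tested by permuting the 12 values. A call needed an F24 above 0.45, a permutation p below 0.05 and more than 1.5 times between the lowest and highest library. By these criteria 15.2% of tested symbols were called rhythmic. Of the 5 genes tested here 1 was called, which is close to that share. Rbm3 had an F24 of 0.508 with its peak at 18.5 hr (permutation p = 0.0455, adjusted over all tested symbols 0.291). Rbm3 lost the call without ZT4 replicate 1 (F24 of 0.469), ZT4 replicate 2 (0.453), ZT8 replicate 1 (0.467), ZT16 replicate 1 (0.480) or ZT20 replicate 1 (0.425), and with the replicate number as a block (permutation p = 0.0591). With the GC trend removed its F24 was 0.744. In each series of 6 values alone, Rbm3 peaked at 18.9 hr (F24 of 0.766, exact permutation p = 0.1) and at 17.7 hr (F24 of 0.294, exact permutation p = 0.667).

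The other tested genes missed the criteria. Hsph1 had an F24 of 0.338 with its peak at 17.3 hr (permutation p = 0.162). Hspa8 had an F24 of 0.271 with its peak at 19.7 hr (permutation p = 0.239), and Cirbp an F24 of 0.203 with its peak at 6.32 hr (permutation p = 0.362). Without ZT8 replicate 2 the F24 rose to 0.528 for Hspa8 (permutation p = 0.0566) and to 0.522 for Cirbp (permutation p = 0.0531). Hsf1 had an F24 of 0.00347. Below the threshold, Hsp90aa1 met all 3 criteria, with an F24 of 0.533 and its peak at 18.6 hr (permutation p = 0.0457), and is not counted among the calls. Its p was above 0.05 with a lane block (0.0831) and with 9 of the 12 libraries left out in turn, up to 0.0992 without ZT20 replicate 1.

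Body temperature differs between rest and activity, so the dark time points (ZT12, ZT16 and ZT20) were set against the light ones (ZT0, ZT4 and ZT8) on log2(rpbp + 1). None of the 5 tested genes passed limma's test at an adjusted p under 0.05, against 4.19% of all tested symbols (1.81% higher in the dark and 2.37% lower). Below an unadjusted p of 0.05, where 21.1% of symbols lay, there was 1, Hsph1. It was 0.73 ± 0.25 (SE) higher in the dark (adjusted p = 0.134). Hspa8 was 0.56 ± 0.27 higher (adjusted p = 0.267), Rbm3 0.25 ± 0.13 higher (adjusted p = 0.314) and Hsf1 0.06 ± 0.14 higher (adjusted p = 0.838). With the GC trend removed none passed either, against 4.81% of symbols (2.69% higher and 2.12% lower), but 2 were below an unadjusted p of 0.05 (22.2% of symbols were): Hsph1 (limma adjusted p = 0.0752) and Rbm3 (0.0769). For Cirbp the deposited difference was -0.15 ± 0.16 (adjusted p = 0.629). The median over all tested symbols was -0.05, and 41.8% of them were above 0, against 8 of the 10 genes. With the GC trend removed it was 50.8% of symbols, again against 8 of the 10 genes. These shares are over symbols above 6 rpbp, while the 10 include the 5 genes that did not pass it.

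Within the time points of 1 lane (ZT12 and ZT16 minus ZT0 and ZT4) the difference was 0.76 ± 0.31 for Hsph1, 0.38 ± 0.33 for Hspa8 and -0.19 ± 0.19 for Cirbp. Within those of 2 lanes (ZT20 minus ZT8) it was 0.65 ± 0.44 for Hsph1, 0.90 ± 0.46 for Hspa8 and -0.08 ± 0.27 for Cirbp. The direction of these 3 genes was thus the same in both, while Hsf1 had -0.00 in the first and 0.20 in the second. For the genes below the threshold, fitted without a filter, the difference over all time points was 0.51 ± 0.19 for Hsp90aa1, 0.28 ± 0.11 for Hspa1b, 0.22 ± 0.19 for Dnajb1, 0.21 ± 0.18 for Hspe1 and -0.05 ± 0.20 for Hspd1.

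ZT0 and ZT12 are the moments when lights change. With both left out (ZT16 and ZT20 minus ZT4 and ZT8), none of the 5 passed limma's test, 4 were below an unadjusted p of 0.05 (all but Hsf1, against 18.5% of symbols), and 2.88% of tested symbols passed (1.07% higher and 1.81% lower). The differences were 1.19 ± 0.31 for Hsph1 (adjusted p = 0.071), 1.08 ± 0.33 for Hspa8 (adjusted p = 0.11), 0.42 ± 0.16 for Rbm3 (adjusted p = 0.199) and -0.45 ± 0.19 for Cirbp (adjusted p = 0.25) by limma. In this contrast 9 of the 10 genes were above 0 and Cirbp alone below, where 37.5% of tested symbols were above 0 on the deposited scale. With the GC trend removed it was also 9 of 10, against 50.9% of symbols. Here too the 10 include the 5 genes that did not pass 6 rpbp, and the shares do not cover such genes. With the GC trend removed as well, a combination chosen after seeing the data, Hsph1 reached 1.35 ± 0.29 and passed limma's test (adjusted p = 0.0443), where 2.96% of tested symbols did (1.54% higher in the dark and 1.42% lower). Without the threshold of 6 rpbp its adjusted p was 0.0651. Rbm3 then had 0.56 ± 0.13 (adjusted p = 0.0507), Hspa8 1.19 ± 0.35 (adjusted p = 0.101) and Cirbp -0.48 ± 0.15 (adjusted p = 0.129). Libraries were left out in turn on the deposited scale only, so this call was not put to that check. On that scale the difference of Hsph1 was lowest without ZT8 replicate 1 and highest without ZT8 replicate 2. Without any 1 of the other libraries it lay between 1.07 and 1.30. On the deposited scale without ZT8 replicate 2, Hsph1 (1.49 ± 0.29) and Hspa8 (1.44 ± 0.28) both passed limma's test (adjusted p of 0.0461 for each), where 1.67% of symbols did. Without ZT8 replicate 1 neither passed (0.89 ± 0.29 for Hsph1, adjusted p = 0.129, and 0.72 ± 0.28 for Hspa8, adjusted p = 0.175, by limma).

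**Figure D3:**
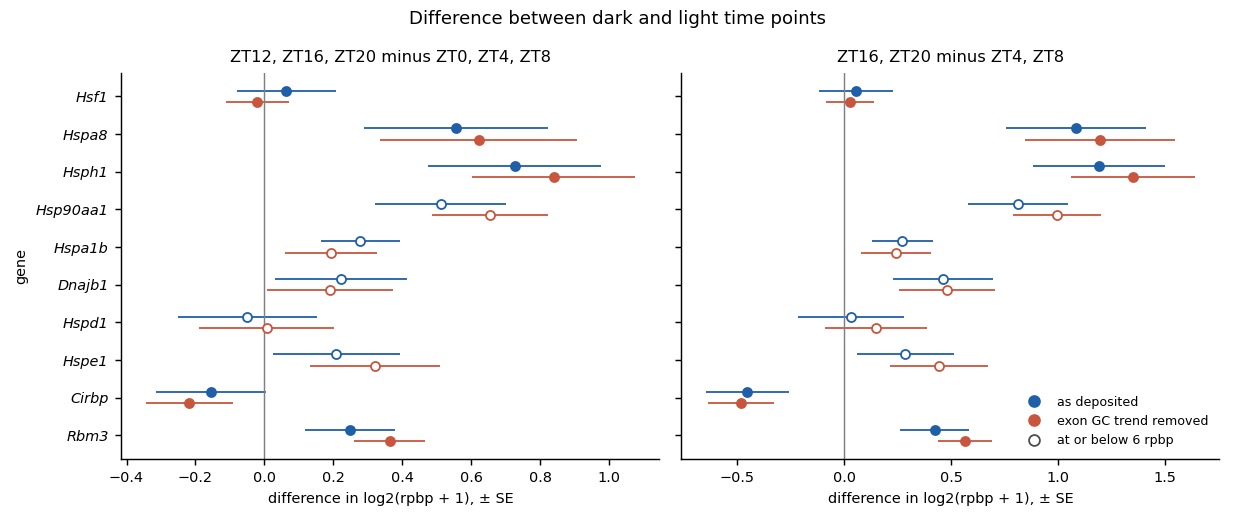
Difference in log2(rpbp + 1) between dark and light time points (x axis, ± SE) for each gene (y axis), over all time points (left) and without ZT0 and ZT12 (right). Blue is the deposited scale and red the scale with the exon GC trend removed, and open circles mark genes at or below 6 rpbp. In the right panel 9 genes lie above 0 and Cirbp lies below on both scales.

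Several of the genes varied with Hsph1 from library to library, Rbm3 among them. Against Hsph1 over the 12 libraries, on log2(rpbp + 1), Pearson's r was 0.815 for Hspa8, 0.788 for Hsp90aa1, 0.785 for Rbm3 and 0.758 for Dnajb1. In this family of 9 relations the adjusted permutation p of these 4 was 0.00693, 0.00693, 0.00693 and 0.0107 (raw 0.00154, 0.00219, 0.00231 and 0.00475). Spearman's rho was 0.589, 0.790, 0.742 and 0.786 in the same order, with adjusted permutation p of 0.0604, 0.0164, 0.0234 and 0.0164 (raw 0.047, 0.00333, 0.00779 and 0.00364). Their r was above that of 99.8%, 99.7%, 99.7% and 99.6% of tested symbols.

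The r was 0.654 for Hspe1, 0.605 for Hspa1b and 0.571 for Hspd1, with adjusted permutation p of 0.0392, 0.0494 and 0.0687 (raw 0.0218, 0.0329 and 0.0534). Their rho was 0.590, 0.661 and 0.614, with adjusted permutation p of 0.0604, 0.0485 and 0.0604 (raw 0.0467, 0.0215 and 0.0367). The values of Hspa1b, at or below 0.8 rpbp and given with 1 decimal, lie near the floor. For Hsf1 r was 0.00737 and rho 0.181 (adjusted permutation p of 0.981 and 0.568, raw 0.981 and 0.568), and for Cirbp r was -0.462 and rho -0.333 (adjusted permutation p of 0.149 and 0.325, raw 0.133 and 0.289).

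The 2 libraries farthest from the median of Hsph1 were those of ZT4. Without them r was 0.697 for Hsp90aa1, 0.666 for Dnajb1, 0.630 for Hspa1b, 0.616 for Rbm3, 0.556 for Hspa8, 0.461 for Hspd1 and 0.375 for Hspe1. For Hsf1 it was 0.285, and for Cirbp -0.00438, so that the negative value of Cirbp over the libraries rests on ZT4. Within the 8 libraries run in 1 lane r was 0.946 for Hspa8, 0.905 for Hsp90aa1, 0.857 for Rbm3, 0.855 for Dnajb1, 0.751 for Hspe1, 0.638 for Hspd1, 0.571 for Hspa1b, 0.137 for Hsf1 and -0.660 for Cirbp. The 4 libraries of 2 lanes are too few for a value.

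Part of this shared variation lay between the 2 libraries of the same time point. The difference between replicates at each of the 6 time points, chosen as a measure after seeing the data, is given as a description. For Hsph1, replicate 2 minus replicate 1 was 0.25 (log2) at ZT0, -0.42 at ZT4, 1.19 at ZT8, 1.18 at ZT12, 0.47 at ZT16 and -0.30 at ZT20. Hsp90aa1 had the same sign as Hsph1 at all 6 time points, and Hspa8, Hspd1, Hspe1 and Rbm3 had it at 5. Dnajb1 had it at 4, Hsf1 and Hspa1b at 3 and Cirbp at 2. Hspa1b was never above 0.8 rpbp, in values of 1 decimal. Its difference was 0.13 at ZT0, 0.14 at ZT8, 0.71 at ZT12 and 0 at ZT4, ZT16 and ZT20. The correlation of Hspa1b given next therefore rests mainly on ZT12 and lies near the floor. Taken through 0, the correlation of these differences with those of Hsph1 was 0.883 for Hspa8, 0.786 for Hsp90aa1, 0.767 for Hspa1b, 0.738 for Hspd1, 0.706 for Hspe1, 0.688 for Rbm3 and 0.621 for Dnajb1. It was -0.717 for Cirbp, lower than in all but 3.71% of tested symbols, and -0.175 for Hsf1. The median over all tested symbols was 0.0617, with quartiles of -0.312 and 0.449. With the GC trend removed the values were 0.841 for Hspa8, 0.825 for Hspa1b, 0.799 for Dnajb1, 0.712 for Hsp90aa1, 0.704 for Hspd1, 0.681 for Hspe1, 0.394 for Rbm3, 0.0530 for Hsf1 and -0.803 for Cirbp. On the deposited scale the share of tested symbols with a lower value was 98.9% for Hspa8, 96.1% for Hsp90aa1, 95.2% for Hspa1b, 93.6% for Hspd1, 91.8% for Hspe1, 90.4% for Rbm3, 86.0% for Dnajb1 and 33.8% for Hsf1.

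**Figure D4:**
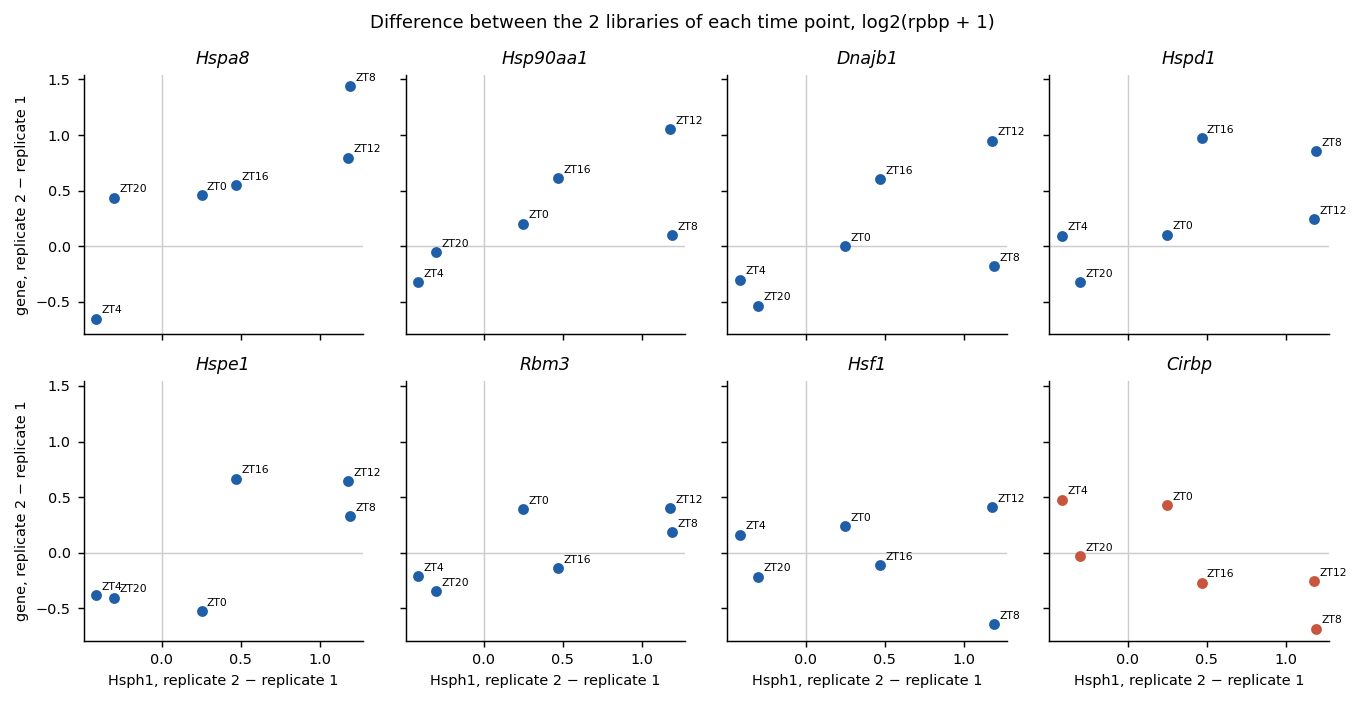
Replicate 2 minus replicate 1 in log2(rpbp + 1) at each time point, for Hsph1 (x axis) and for 8 other genes (y axis of each panel). Each point is 1 time point. Points of the chaperone genes run upward, with ZT8 off the line for Dnajb1 and Hsp90aa1, and those of Cirbp (red) run downward.

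At ZT8, where the replicates differed most for Hspa8 and Hsph1, the sign of the difference divided the genes by exon GC content on the deposited scale. Of the 9 genes with a mean of at least 1 rpbp, the 6 that were higher in ZT8 replicate 2 had exons of at most 49.6% GC, and the 3 that were lower (Hsf1, Cirbp and Dnajb1) had exons of at least 55.4% GC. The change between the ZT8 libraries was -0.64 (log2) for Hsf1 and -0.68 for Cirbp, and was -0.24 and -0.31 once the GC trend was removed. For Hspa8 and Hsph1 it was 1.44 and 1.19 before and 1.53 and 1.02 after. The sign turned for Dnajb1 (-0.18 before and 0.17 after), Rbm3 (0.18 and -0.11) and Hsp90aa1 (0.10 and -0.09). The division by GC content therefore did not hold with the trend removed.

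**Figure D5:**
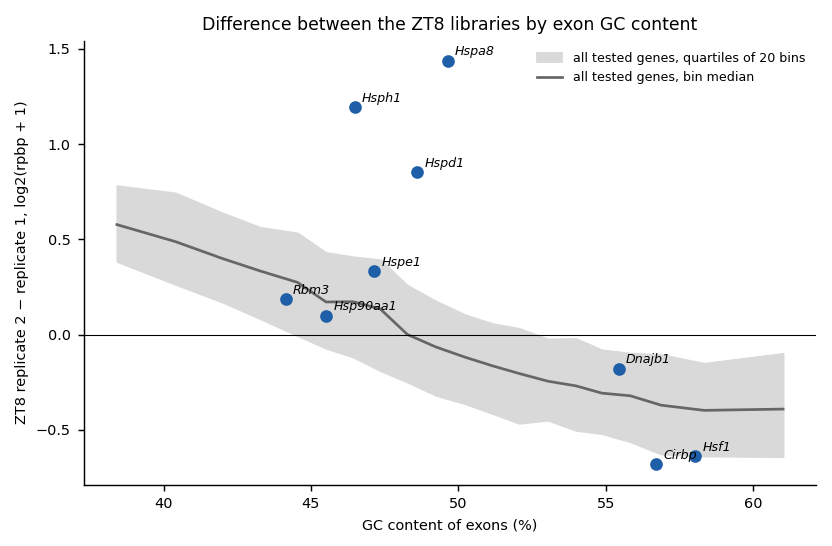
Difference between the 2 ZT8 libraries in log2(rpbp + 1) (y axis) against the GC content of exons in percent (x axis). The grey line and band give the median and quartiles of tested genes in 20 bins, and points are the 9 genes with a mean of at least 1 rpbp. Hspa8, Hsph1 and Hspd1 lie above the band, and Hsf1 and Cirbp lie at or below its lower edge.

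Other genes of the heat shock response were taken as a list of 37, of which 34 were in the table and 19 were tested. None passed limma's dark-light test, with 7 below an unadjusted p of 0.05, against 21.1% of all tested symbols. The median dark-light difference was 0.08, with 13 above 0 and 6 below. The highest was that of Hsp90ab1, the constitutive cytosolic Hsp90 (0.82 ± 0.23, limma adjusted p = 0.0793), with 8.3 to 39.7 rpbp. The rhythmic calls included Hspb8 (F24 of 0.706, peak at 14.7 hr), a small heat shock protein, its partner Bag3 (0.556, peak at 18.9 hr), and Ahsa1 (0.566, peak at 16.9 hr), an activator of Hsp90. As for the replicate differences, the median correlation of the 19 genes with Hsph1 was 0.603, from -0.418 for Hspb6 to 0.941 for Chordc1, a partner of Hsp90 that HSF1 is known to induce.

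Chaperones that are not on this list were taken from other lists. Of 9 genes for mitochondrial chaperones and proteases 7 were tested, 2 were rhythmic (Hspa9 with an F24 of 0.511, and Clpx with 0.819), where 15.2% of all symbols were. The F-test was passed by 2 (Clpx with an adjusted p of 0.0138 and Grpel2 with 0.027, limma), and by 7.65% of all symbols. Their median correlation with the replicate differences of Hsph1 was -0.0875. Of the 8 subunits of the cytosolic chaperonin TRiC 5 were tested and none was rhythmic or passed limma's F-test (0 below an unadjusted p of 0.05), and their median dark-light difference was -0.06. The median correlation of their replicate differences with those of Hsph1 was 0.401, and 0.577 with the GC trend removed, where that of the heat shock list was 0.550. Immediate early genes, which rise within minutes of stress at collection, were taken as 6. Fos, Egr1, Atf3 and Ier2 stayed at or below 4.2 rpbp, while Jun ranged from 2.6 to 12.4 rpbp and Dusp1 from 16.6 to 88.1 rpbp. In the ZT8 libraries Hspa8 and Hsph1 were higher in replicate 2. Jun, at 7.3 and 12.4 rpbp, and Dusp1, at 16.9 and 43.9 rpbp, were also higher in replicate 2. The other 4 went the other way, with 4.2 and 0.7 rpbp for Egr1 and 3.6 and 1.9 rpbp for Ier2. Fos had 0.9 and 0.5 rpbp and Atf3 0.6 and 0.4 rpbp. Neither Jun nor Dusp1 passed limma's F-test (adjusted p of 0.131 and 0.0781, unadjusted 0.0267 and 0.00978). Their replicate differences over the 6 time points had correlations of 0.0851 and 0.403 with those of Hsph1, and their part in the chaperone values was not tested. Egr1, below the threshold, had -0.822.

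Per2, a clock gene, is known to follow body temperature in liver through heat shock elements in its promoter. Per2 was 1.36 ± 0.21 higher in the dark (limma adjusted p = 0.00839) and was called rhythmic (F24 of 0.827, peak at 14.3 hr). Its peak thus came before those of Hsph1, Rbm3 and Hspa8, without a test of the difference. The counting did not use strand. In strand-specific libraries the authors reported a peak of Per2 at ZT16 and an antisense transcript peaking at ZT4. The part of this transcript in the Per2 values was not tested.

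The genes whose courses were most like that of Hsph1 over the 12 libraries, among 5543 symbols with a time-point mean above 6 rpbp, were P4ha1, a subunit of collagen prolyl hydroxylase (Pearson's r of 0.913), and the clone-named transcripts DQ704526 (0.921) and DQ704729 (0.878) on chromosome 6. For Cirbp they were Wipi2 (0.981), Ddi2 (0.949) and BC035255 (0.943). Wipi2 encodes an autophagy protein that binds phosphoinositides, Ddi2 a protease, and the 3 genes lie on chromosomes 5, 4 and 11, apart from Cirbp on chromosome 10. The neighbours of Cirbp on its own chromosome, Midn at 7616 bp and 1600002K03Rik at 157 bp, gave 5.2 to 11.7 rpbp and 0.2 to 2.0 rpbp.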

How the data were processed

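Nascent RNA from mouse liver was measured in 12 libraries, grouped by the time point in the labels. The authors aligned reads to mm9 with TopHat after CASAVA 1.7, kept uniquely mapped reads, divided coverage of the merged exons of each symbol by exon length without regard to strand, scaled libraries to the same number of reads, and deposited the signal in rpbp with 1 decimal. Their F24, phase and p-value columns hold their own rhythm statistics and were not used. Blank lines (27919) were dropped. The signal is not a count, so limma 3.58.1 (R 4.3.3) was run on log2(rpbp + 1) with Benjamini-Hochberg adjustment over the 6284 symbols above 6 rpbp in at least 1 library. F24 and its one-sided p from 100000 permutations used linear values, following the study's methods. Scripts were tested on simulated data. Exon GC content (mm9, GENCODE M1) was found for 97.9% of tested symbols, and the median log2 deviation in 20 bins was removed in an alternative. Python 3.11.15 with numpy 2.4.6 was used otherwise.

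The genes and lists were named by a rule: the 10 genes with all values, other listed genes past a test or called rhythmic, nearest neighbours, and the 3 genes most like Hsph1 and Cirbp. They were chosen with earlier results of these data known. Some listed genes are not reported here. Egr1, Jun, Dusp1, Hspb6, Chordc1, Hsp90ab1 and the time-point extremes were singled out after their values were seen. Alternatives were thresholds of 3 and 12 rpbp or none, 0.1 as pseudocount, median rescaling, removal of the GC trend, log2 values for F24, adjusted permutation p, blocks by replicate or lane, each library or series left out, and the contrast without ZT0 and ZT12, to which the GC trend removal and the leaving out of each library were added after seeing the data.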

Additional observations from a re-analysis of the deposited data

How the results depend on the processing

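The number of the 5 tested genes called rhythmic was 1 (Rbm3) and became 0 at a threshold of 12 rpbp, with a replicate block, with an adjusted permutation p and in either series alone, and 2 with no threshold, where Hsp90aa1 joined. Leaving out 1 library gave between 0 and 1. The number differing among time points was 0, from 0 to 1 with 1 library left out (Hspa8 with a ZT8 library left out), and 1 with a replicate block, where the limma adjusted p of Hspa8 was 0.0492. Over 15 pairs of time points the correlation of replicate deviations ran from -0.117 to 0.320, with 5 over 0.1, so the samples were not taken as paired. Over all symbols the block gave 455 calls in place of 481. The number of the 5 differing between dark and light was 0, and 1 without ZT0 and ZT12 with the GC trend removed. Without ZT0 and ZT12 on the deposited scale it was 0 to 2 with 1 library left out, 2 without ZT8 replicate 2 (Hspa8 and Hsph1) and 0 without any of the other 11. The dark-light difference of Hsf1 (0.0641) turned to -0.0203 with the GC trend removed, with the threshold or without it (-0.0203), to -0.00224 within 1 lane, and ran from -0.0424 to 0.171 with 1 library left out, below 0 without ZT8 replicate 2 or ZT12 replicate 2. That of Hspd1 (-0.0496) turned to 0.0303 without ZT0 and ZT12, 0.0356 within 1 lane and 0.00628 with no threshold and the GC trend removed. That of Hspe1 (0.209) turned to -0.111 within 2 lanes. The cause of these changes was not tested. The other 7 genes kept their direction under the alternatives run.

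Over all symbols the F-test made 133 calls of 20756 with no threshold, 453 of 10382 at 3 rpbp, 329 of 2858 at 12 rpbp, and 167 to 663 with 1 library left out. Dark-light calls numbered 263, and 101 to 360 with 1 library left out. Of them 114 were higher and 149 lower in the dark, against 166 and 115 after median rescaling and 169 and 133 with the GC trend removed. Limma was not run on a single series, which has no residual degrees of freedom.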
